A study of Mus musculus with 6 samples.

Results

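The regions described here were bound by estrogen receptor α (ERα) in the uterus of AF-2 mutant mice after ICI, and were in none of the other 3 ligand lists of the study. They were found by merging the deposited peaks of all 6 libraries wherever they overlapped by at least 1 bp. A merged region was kept when it held a peak of the AF-2 mutant ICI library and no peak of the AF-2 mutant Tam, WT ICI or WT Tam library, whether or not a vehicle peak was present. This gave 8430 regions of 65146 in all, or 12.9%, and they are called regions of mutant ICI alone. The presence and absence of peaks in the 4 ligand lists chose these regions, so that pattern is a description and not a result.

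ERα binding was measured by chromatin immunoprecipitation and sequencing (ChIP-seq) with an ERα antibody. The groups were AF-2 mutant mice given ICI, AF-2 mutant mice given Tam, AF-2 mutant mice given vehicle (Veh), and wild-type (WT) littermates given ICI, Tam or Veh. All mice were C57BL/6J females aged 12 weeks whose ovaries had been removed. ICI (fulvestrant, ICI182780) and Tam (tamoxifen) were injected intraperitoneally at 2 mg/kg in DMSO, Veh was 50 µl of DMSO, and uteri were taken after 1 h. Every sample title contains E1h, a code with no explanation in the labels, so whether all 6 groups also received an estrogen is not known. The labels call the mutant ERα AF-2 mutant, AF2ERKI and, in the titles, Af2KI, and do not describe the changed residues or any restriction to a cell type. Each group was 1 library made from a pool of 6 uteri, with all uterine cell types together. There are therefore no replicates, no test between groups was possible, and every comparison is between libraries. The intervals given below are exact 95% binomial intervals, which cover counting error only.

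ERα is a nuclear receptor that binds DNA at estrogen response elements and through other DNA-bound factors. Its activation function 2 (AF-2) is a surface of the ligand-binding domain to which coactivators dock once an agonist has folded the domain's last helix into place. Tamoxifen displaces that helix, while fulvestrant is a steroidal antagonist that disturbs it further and promotes loss of the receptor protein. Mice with a disrupted AF-2 are known for responses in which an antagonist behaves like an agonist in certain tissues, partly through the receptor's other activation function, AF-1. In the uterus ERα is present in epithelium, stroma and smooth muscle and governs growth and secretion.

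The AF-2 mutant ICI list was the longest of the 6, with 45837 peaks. AF-2 mutant Tam gave 36538 peaks and AF-2 mutant Veh 5027, against 26482 with WT ICI, 37327 with WT Tam and 3712 with WT Veh. Each peak in these lists was 200 bp wide, and the lists carry no height or score, so the strength of binding at a region is unknown, as is read depth. The number of regions held by 1 list alone moves with the length of that list and of the others, and with 1 library per group wider binding and a more sensitive library cannot be told apart. Positions are given in mm9, counted from 1. Genes and sequences at the regions are not given, since no mm9 genome or annotation was used here.

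The mutant ICI list took part in 45829 merged regions, of which the 8430 make up 18.4%. For the other ligand lists the corresponding shares of regions held by 1 list alone were 9.77% for AF-2 mutant Tam (3569 of 36532), 16.0% for WT ICI (4228 of 26482) and 16.9% for WT Tam (6298 of 37324). Each region of mutant ICI alone held exactly 1 mutant ICI peak. In 8153 of them that peak stood alone, 243 held 1 vehicle peak besides, and 34 held a vehicle peak of both genotypes.

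Few mutant ICI peaks lay within 20 bp of the edge of the rule. Of the mutant ICI peaks outside the set, 41 overlapped another ligand list's peak by only 1 to 20 bp, and within the set 38 regions lay no more than 20 bp from such a peak, 2 of them directly adjoining it. A wider margin took in more, with 559 regions of the set, or 6.63% (6.11 to 7.18), within 200 bp of such a peak. The median best overlap among mutant ICI peaks that overlapped another ligand peak was 192 bp of 200, and 352 of these peaks overlapped by under 100 bp. Only 7 mutant ICI peaks that overlapped no other ligand peak themselves were left out because a chain of overlapping peaks joined them to one.

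The vehicle lists played no part in choosing the regions. ERα peaks of the vehicle libraries were rare at regions of mutant ICI alone, and those present came mostly from the mutant. A mutant Veh peak lay in 258 of the 8430 regions, or 3.06% (2.70 to 3.45), against a background of 7.72% over all merged regions and 6.84% over all mutant ICI regions. A WT Veh peak lay in 53, or 0.629% (0.471 to 0.822), against backgrounds of 5.7% and 6.33%. All merged regions include those called under vehicle only, which hold a vehicle peak by definition. Over the 63548 regions with a ligand peak the shares were 5.87% for mutant Veh and 5.21% for WT Veh. Both shares at regions of mutant ICI alone were below each of these backgrounds, and the WT share was farther below. No vehicle peak was called in 96.7% of the regions (96.3 to 97.1), which does not show that binding was absent there. The background was 88.3% over all regions and 90.5% over those with a ligand peak. Regions of WT ICI alone and WT Tam alone gave similar shares, 96.8% and 97.7%, and regions of mutant Tam alone gave 92.3%.

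Set against the mutant ICI regions that other ligand lists shared, the difference lay in both vehicle lists. Those 37399 regions held a mutant Veh peak in 7.69% (7.42 to 7.96) and a WT Veh peak in 7.61% (7.35 to 7.89). Regions of mutant ICI alone thus held 4.87 times as many mutant as WT Veh peaks. The ratio was 1.01 in the shared regions, 1.13 over all regions with a ligand peak and 1.35 over all regions. Seen from the vehicle lists, regions of mutant ICI alone took up 5.13% of the 5027 mutant Veh peaks (4.54 to 5.78) and 1.43% of the 3712 WT Veh peaks (1.07 to 1.86).

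A vehicle peak of the mutant genotype was also the usual one in several other combinations of ligand lists. Among regions with a vehicle peak of 1 genotype only, that genotype was the mutant in 224 of 243 regions of mutant ICI alone, or 92.2% (88.1 to 95.2). In regions held by mutant ICI and mutant Tam alone it was the mutant in 96.5% (94.6 to 97.8), and in regions of mutant Tam alone in 85.7% (80.6 to 89.8). Regions of WT ICI alone gave 57.8% (48.8 to 66.5) and regions of WT Tam alone 48.8% (39.9 to 57.8). The backgrounds were 60.0% over all regions and 54.2% over all regions with a ligand peak. Some combinations that include a WT ligand list were also above both backgrounds. The mutant accounted for 82.0% in regions held by mutant ICI and WT ICI (68.6 to 91.4). It accounted for 74.8% in regions held by mutant ICI, mutant Tam and WT Tam (70.7 to 78.6). The lean to the mutant vehicle list was therefore not confined to regions of mutant ICI alone or to regions that mutant lists alone held. Regions of all 4 ligand lists gave 33.3% (31.4 to 35.1).

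The share with a mutant Veh peak differed between the classes that mutant ligand lists alone held by more than counting error. A mutant Veh peak lay in 9.41% of the 6905 regions held by mutant ICI and mutant Tam (8.73 to 10.1) and in 6.70% of the regions of mutant Tam alone (5.90 to 7.57), both above the 3.06% of mutant ICI alone. Regions of WT ICI alone and WT Tam alone held a mutant Veh peak in 1.96% (1.57 to 2.43) and 1.27% (1.01 to 1.58), and a WT Veh peak in 1.49% (1.15 to 1.90) and 1.32% (1.05 to 1.63). Regions held by mutant ICI together with WT Tam, across genotype and ligand, had a mutant Veh peak in 1.46% (1.09 to 1.91) and a WT Veh peak in 1.09% (0.771 to 1.49).

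**Figure D1:**
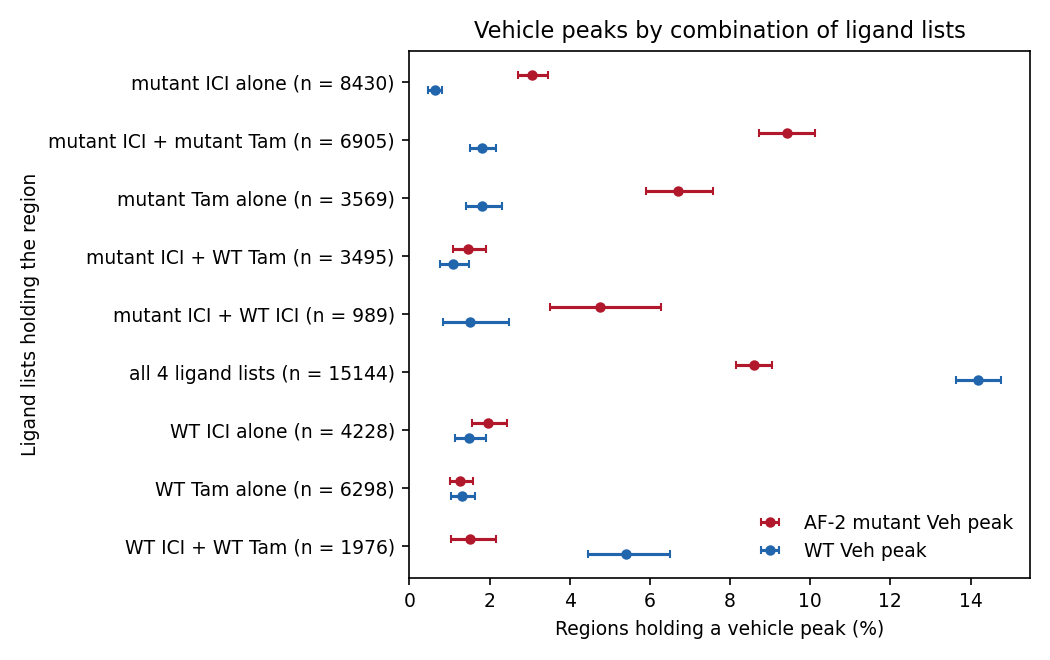
Share of regions (%, x axis) that hold an AF-2 mutant Veh peak (red) or a WT Veh peak (blue), for regions grouped by the ligand lists that hold them (y axis). Points are shares and bars exact 95% binomial intervals for counting error, with 1 library per group. At regions of mutant ICI alone the mutant Veh share of 3.06% lies above the WT Veh share of 0.629%, and both are below those of the regions held by all 4 ligand lists, at 8.60% and 14.2%.

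Where a mutant Veh peak was present, it sat close to the ICI peak. The midpoints of the mutant Veh and mutant ICI peaks were a median of 26.5 bp apart in the 258 regions (quartiles 10 and 53 bp). In 19 of them, or 7.36% (4.49 to 11.3), the midpoints differed by more than 100 bp. In the regions shared by mutant ICI and mutant Tam the median was 25 bp, with 8.31% over 100 bp (6.30 to 10.7). In the regions of all 4 ligand lists it was 31 bp, with 17.1% over 100 bp (15.0 to 19.2). Where other ligand peaks are present, the Veh peak can be joined through them, so those offsets are not held to the same bound. For WT Veh peaks the median offset in the 53 regions of mutant ICI alone was 18 bp.

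The first regions of each vehicle state along the genome illustrate them and were not picked for strength. A mutant Veh peak alone accompanied the ICI peak on chromosome 1 at 10222963 to 10223315, at 23390100 to 23390330 and at 24107155 to 24107373. The first of these lay 288 bp from a peak of another ligand list, and the other two lay 61.5 and 72.2 kb from one. A WT Veh peak alone was present at 40150890 to 40151132 of chromosome 1, and at 19293614 to 19293859 and 85092732 to 85092948 of chromosome 2, with other ligand peaks 344, 2429 and 311 bp away. Peaks of both vehicle lists were present at 58643192 to 58643427 and 157405110 to 157405322 of chromosome 1, and at 29643157 to 29643362 of chromosome 2. These last regions were 16.5 to 19.4 kb from any other ligand peak, although both vehicle libraries were called there.

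The widest regions were those in which the ICI and mutant Veh peaks barely overlapped. They spanned 43003003 to 43003384 of chromosome 18, 101931539 to 101931918 of chromosome 14 and 149667438 to 149667816 of chromosome 7, with widths of 382, 380 and 379 bp. Each held 1 mutant ICI and 1 mutant Veh peak. The chromosome 7 region was 56 bp from another ligand peak, while those on chromosomes 18 and 14 were 9966 and 5297 bp from one.

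Like the regions held by each other ligand list alone, regions of mutant ICI alone mostly had an ERα site of another ligand list within 50 kb. The median gap to the nearest peak of another ligand list was 6.54 kb in regions of mutant ICI alone, with quartiles of 1.58 and 18.6 kb. Another ligand peak was within 10 kb of 60.5% (59.5 to 61.6), within 50 kb of 91.5% (90.9 to 92.1), and within 500 bp of 13.8% (13.03 to 14.5). Overlap was barred by the rule, so these distances describe the regions and were not tested. Regions of WT Tam alone lay farther out, with a median of 9.17 kb to the nearest of 108857 other ligand peaks, against 100347 such peaks for mutant ICI alone. For WT ICI alone the median was 5.68 kb and for mutant Tam alone 5.53 kb, against 119702 and 109646 other peaks.

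The gaps of close neighbours were not spread evenly over the bins. In bins of 50 bp, each without its upper bound, the gap to the nearest other ligand peak was most often 150 to 200 bp, with 223 regions of mutant ICI alone, compared with 98 regions at 0 to 50 bp and 75 at 450 to 500 bp. To shared mutant ICI regions, 183 gaps were at 150 to 200 bp and 8 at 0 to 50 bp. The mutant ICI list had no 2 peaks under 69 bp apart, so gaps between its own peaks could not fall in the first bin. The source of the spacing was not tested. Regions of WT Tam alone were also most numerous at 150 to 200 bp, but only by 80 regions against 69 at 0 to 50 bp. Regions of mutant Tam alone showed little difference between these bins, with 66 at 150 to 200 bp and 71 at 0 to 50 bp. Regions of WT ICI alone were most numerous in the first bin, with 89 at 150 to 200 bp and 158 at 0 to 50 bp. A gap of at most 100 bp was found for 2.19% of mutant ICI alone (1.89 to 2.53), 3.53% of mutant Tam alone (2.95 to 4.19), 6.69% of WT ICI alone (5.96 to 7.49) and 1.98% of WT Tam alone (1.65 to 2.36).

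**Figure D2:**
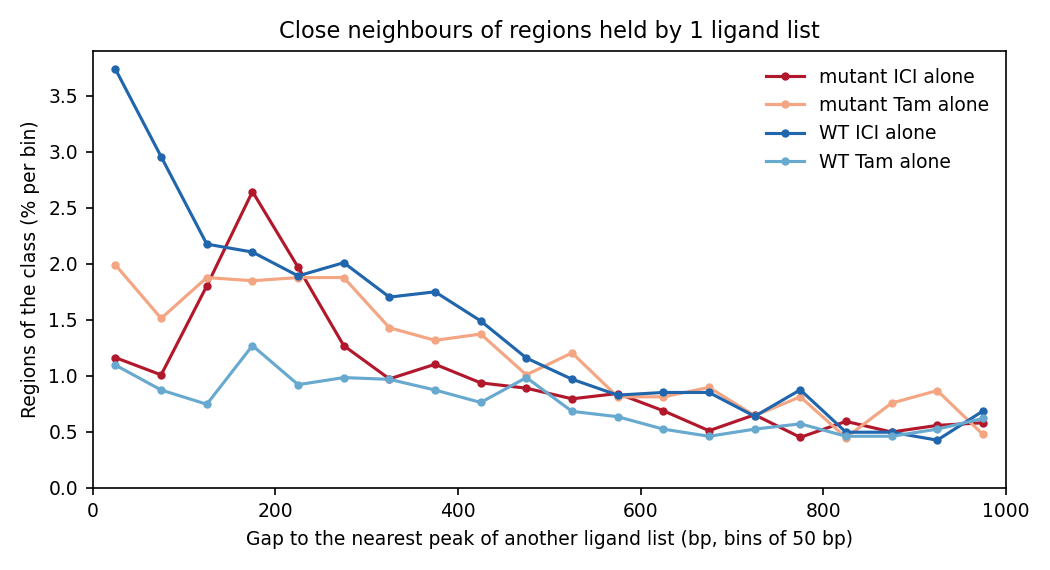
Gap to the nearest peak of another ligand list (bp, x axis, bins of 50 bp up to 1 kb) for regions held by 1 ligand list alone; the y axis is the percentage of the class in each bin, and each line is a class. Regions of mutant ICI alone are most frequent at 150 to 200 bp (223 regions), as are, by a small margin, regions of WT Tam alone (80 regions). Regions of WT ICI alone are most frequent at 0 to 50 bp (158 regions).

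Most of the close neighbours were second mutant ICI peaks beside a shared site. Of the 1160 regions with another ligand peak within 500 bp, 788 (67.9%, 65.2 to 70.6) also lay within 500 bp of a mutant ICI region that another ligand list shared. The other 372 (32.1%, 29.4 to 34.8) lay beside regions that mutant ICI itself lacked. Shared mutant ICI regions were also most of the regions that other ligand lists held. They were 37399 of the 63548 regions with a ligand peak, a total that includes the 8430. The majority is therefore not read as a trait of regions of mutant ICI alone. In all, 792 regions of mutant ICI alone, or 9.40% (8.78 to 10.04), were within 500 bp of a shared mutant ICI region, and 183 of them at a gap of 150 to 200 bp. The mutant ICI list itself held no pair of peaks with a gap under 69 bp, and its own gaps were most frequent at 200 to 250 bp, with 967 of its peaks.

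The shared regions beside them were of much the same kinds as shared mutant ICI regions in general. Each of the 792 regions had a different nearest shared neighbour. All 4 ligand lists held 43.2% of these neighbours (39.7 to 46.7), against 40.5% of the 37399 shared regions (40.0 to 40.99). Mutant Tam had a peak in 87.2% of the neighbours (84.7 to 89.5), against 83.7% of shared regions (83.4 to 84.1). WT Tam had one in 68.9% (65.6 to 72.1), against 74.6% (74.11 to 74.996). WT ICI had one in 54.5% (51.0 to 58.1), against 51.8% (51.2 to 52.3). Neighbours of regions of mutant ICI alone thus leaned to sites of the mutant Tam list and away from those of the WT Tam list, by a few percentage points.

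Mutant Tam also ranked above WT Tam in the distances to single lists. Shared mutant ICI regions as a whole had that order too, with a mutant Tam peak in 83.7% and a WT Tam peak in 74.6%. Mutant Tam and WT Tam had lists of similar length, with 36538 and 37327 peaks. A mutant Tam peak lay within 500 bp of 10.2% of regions of mutant ICI alone (9.60 to 10.9), against 8.03% for WT Tam (7.46 to 8.63). Within 10 kb the shares were 49.4% (48.3 to 50.5) for mutant Tam and 45.8% (44.7 to 46.9) for WT Tam, and within 50 kb 84.9% (84.1 to 85.6) and 84.2% (83.4 to 85.0). The median gap was 10.2 kb to mutant Tam and 11.8 kb to WT Tam. WT ICI, the shortest ligand list, had a peak within 500 bp of 7.41% (6.86 to 7.99) and within 10 kb of 39.8% (38.7 to 40.8), at a median of 15.2 kb. Within 100 bp the WT ICI share was 1.10% (0.891 to 1.35), against 0.795% (0.616 to 1.01) for WT Tam, and these intervals overlapped.

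**Figure D3:**
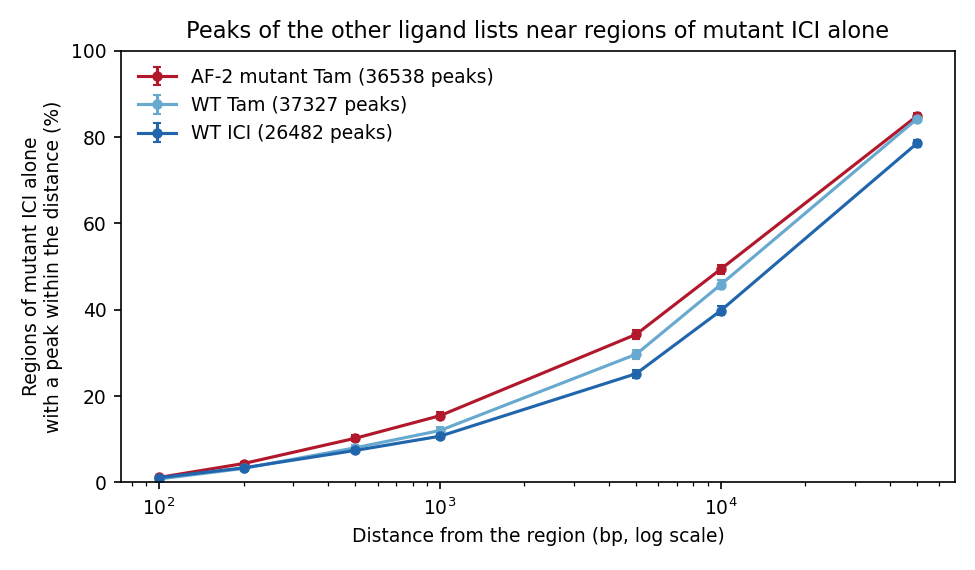
Percentage of regions of mutant ICI alone (y axis) with a peak of AF-2 mutant Tam, WT Tam or WT ICI within the distance on the x axis (bp, log scale). Points are shares of the 8430 regions and bars exact 95% binomial intervals. The mutant Tam curve runs above the WT Tam curve at 500 bp (10.2% against 8.03%) and both come together by 50 kb (84.9% and 84.2%).

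Within the mutant ICI list, the regions stood somewhat farther from their neighbours than shared regions did. The median gap to the nearest mutant ICI region was 7.56 kb for regions of mutant ICI alone and 6.05 kb for shared ones. Another mutant ICI region was within 10 kb of 56.6% (55.6 to 57.7), against 62.2% of shared regions (61.7 to 62.7) and a background of 61.2% over all mutant ICI regions. Within 500 bp the share was 11.2% (10.6 to 11.9), against 12.7% of shared regions (12.4 to 13.1) and a background of 12.5%. The 10 kb share was not the lowest among combinations of lists: regions held by mutant ICI and WT Tam gave 52.5% (50.9 to 54.2), and those held by mutant ICI and mutant Tam 64.5% (63.4 to 65.6).

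Regions of mutant ICI alone followed one another along the mutant ICI list slightly more often than their share of that list, a difference that was not tested. Of the 8424 with a following mutant ICI region on the chromosome, 1682 were directly followed by another region of mutant ICI alone, or 19.97% (19.1 to 20.8), against the 18.4% that they make up of all mutant ICI regions. The median gap to the nearest other region of mutant ICI alone, on either side, was 52.6 kb. Such a region lay within 10 kb of 17.0% (16.2 to 17.8) and within 500 bp of 1.87% (1.60 to 2.19). Along the list of mutant ICI regions, 5438 stood singly between shared regions and 1025 pairs, 221 triplets and 45 sets of 4 followed each other directly. The longest unbroken run was of 7 regions on chromosome 4 at 151994162 to 152071797, a stretch of 77.6 kb. Its first 3 peaks were at 151994162 to 151994361, 151996284 to 151996483 and 151998489 to 151998688, and its last was at 152071598 to 152071797. The same stretch held 3 mutant Tam peaks, 1 WT ICI peak and 1 WT Tam peak at other positions and 0 peaks of either vehicle list.

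The share of mutant ICI regions that no other ligand list held was highest where few were found. In windows of 100 kb with a single mutant ICI region, 22.0% were regions of mutant ICI alone (20.8 to 23.2). With 3 or 4 regions in the window the share was 19.7% (18.99 to 20.4), with 7 to 9 it was 16.5% (15.8 to 17.3), and with 15 to 23 it was 14.7% (12.8 to 16.9). In 639 windows a region of mutant ICI alone was present and no peak of another ligand list. These windows held 731 of the regions, or 8.67% (8.08 to 9.29). No such share is given for the other classes, and it moves with the length of the other lists.

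**Figure D4:**
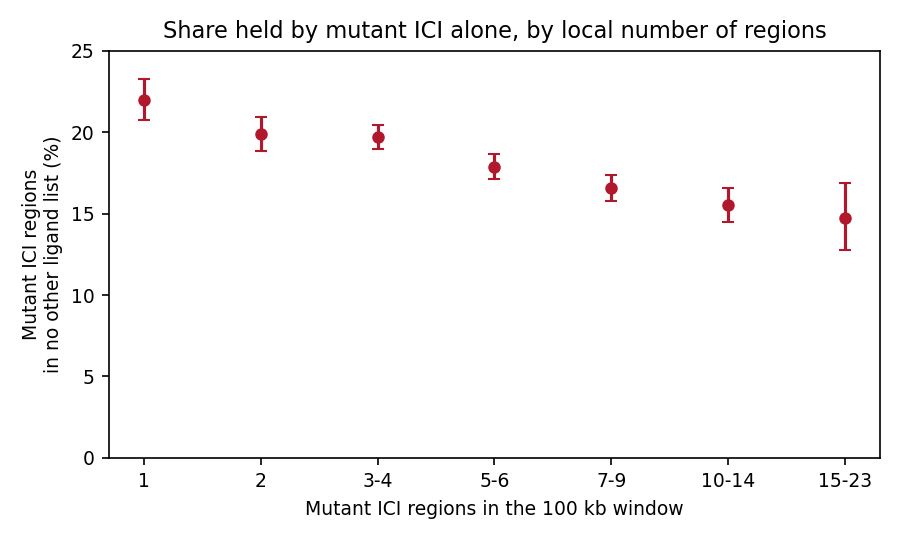
Percentage of mutant ICI regions that no other ligand list held (y axis), by the number of mutant ICI regions in their 100 kb window (x axis). Points are shares and bars exact 95% binomial intervals; the share is 22.0% in windows with 1 region and 14.7% in windows with 15 to 23.

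The regions were nevertheless found in dense windows as well. Of the 6106 windows with a region of mutant ICI alone, 4429 held 1 and 28 held 5 or more. The window with the most lay on chromosome 7 at 106500001 to 106600000 and held 7. It had 16 mutant ICI, 9 mutant Tam and 0 mutant Veh peaks, and 4 WT ICI, 6 WT Tam and 2 WT Veh peaks. The windows named here were ranked by their regions of mutant ICI alone, which are mutant ICI peaks that the other ligand lists lack. Their higher counts of mutant ICI peaks follow in part from that choice and are not a result. Of the 7 regions there, 4 were at 106565349 to 106565548, 106568110 to 106568309, 106575776 to 106575975 and 106578200 to 106578399, each 2344 to 7683 bp from the nearest other ligand peak.

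Further windows held 6 regions of mutant ICI alone each, which by the rule add to the mutant ICI count and to no other ligand list. On chromosome 2 at 92200001 to 92300000 there were 14 mutant ICI and 8 mutant Tam peaks, against 7 WT ICI and 3 WT Tam peaks. On chromosome 4 at 148200001 to 148300000 there were 15 mutant ICI and 7 mutant Tam peaks, against 9 with each ligand in the WT. On chromosome 8 at 122200001 to 122300000 there were 9 mutant ICI and 4 mutant Tam peaks, against 1 WT ICI and 3 WT Tam peaks, and 0 peaks in the vehicle lists. On chromosome 11 at 98900001 to 99000000 there were 16 mutant ICI, 10 mutant Tam and 3 mutant Veh peaks, against 8 WT ICI, 9 WT Tam and 3 WT Veh peaks. In these windows the other ligands also had peaks, so that the regions of mutant ICI alone were further positions in stretches also bound with other ligands. These are the extremes of 16125 windows with a peak of any list.

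At the other end were isolated sites. The region farthest from any other ligand peak was on chromosome 15 at 47175196 to 47175395, 2556 kb from the nearest. The region on chromosome 3 at 159508314 to 159508513 was 1302 kb from one. A further region, at 3233179 to 3233378 of the unplaced sequence chrUn_random, also ranked among the 3 farthest, but positions there are joined arbitrarily and the distance has no genomic meaning. None of the 3 held a vehicle peak.

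The share of regions with a vehicle peak had no steady order with the distance to other ligand sites. A mutant Veh peak lay in 3.53% of the 1160 regions with another ligand peak within 500 bp (2.55 to 4.76), in 2.49% of the 3943 at over 500 bp to 10 kb (2.02 to 3.02), in 3.56% of the 2613 at over 10 to 50 kb (2.88 to 4.34) and in 3.64% of the 714 beyond 50 kb (2.39 to 5.29). WT Veh peaks lay in 0.948% (0.474 to 1.69), 0.457% (0.271 to 0.721), 0.689% (0.409 to 1.09) and 0.840% (0.309 to 1.82) of the same groups. The intervals of the nearest and the farthest groups overlapped for both vehicle lists.

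By chromosome the regions followed the mutant ICI list closely. On chromosomes 1 to 19 they made up 18.4% of mutant ICI regions (18.01 to 18.7), from 17.0% on chromosome 5 (15.6 to 18.5) to 20.8% on chromosome 3 (19.1 to 22.5). On the X chromosome the share was 20% (17.5 to 22.7), with 185 of 925 regions. The X chromosome had 1.11 regions of mutant ICI alone per Mb, against 3.34 over the autosomes, where chromosome 11 was highest with 4.66 per Mb and chromosome 14 lowest with 2.90. All mutant ICI regions had 5.56 per Mb on the X chromosome and 18.2 over the autosomes, so the deficit on X was also that of the whole list. The interval of chromosome 3 was the only one of the 20 that did not include the 18.4% of the whole list. In all, 3 regions lay on unplaced or randomly placed sequence.

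**Figure D5:**
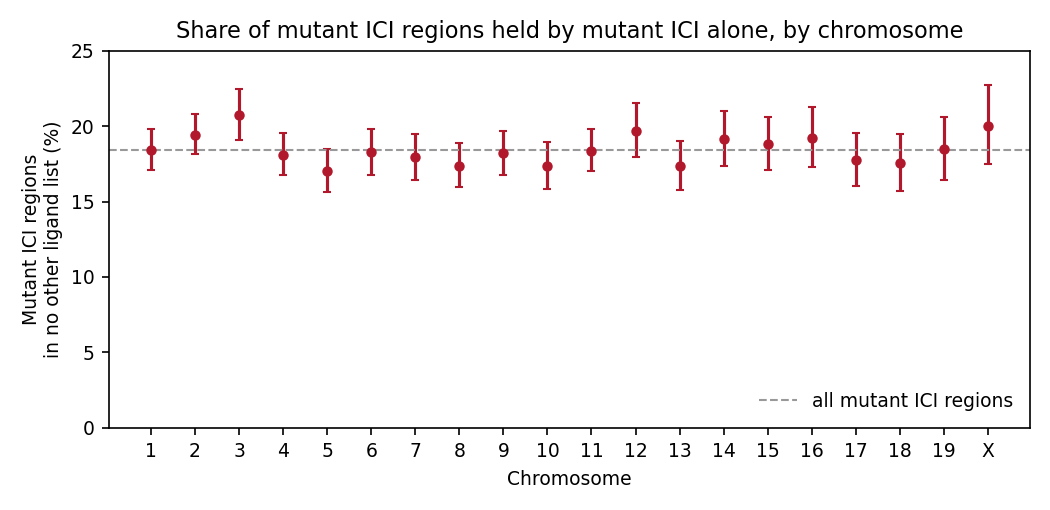
Percentage of mutant ICI regions that no other ligand list held (y axis) on each chromosome (x axis), with exact 95% binomial intervals and the share over all mutant ICI regions, 18.4%, as a dashed line. The shares lie between 17.0% on chromosome 5 and 20.8% on chromosome 3.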

How the data were processed

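For each library the authors deposited a list of peaks. Its values are positions in bp with no measure of strength, and every interval was tested to be 200 bp wide. The submitters' processing notes name build mm9 and, without roles, HOMER 4.10.3, Bowtie2 2.1.0, bedtools 2.24.0, Picard and SAMtools. Read depth, the peak threshold and any use of an input library, which set how many peaks a list holds, were looked for and not given in the sources used here.

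Peaks were merged, and distances, windows and shares computed, in Python 3.11.15 with pandas 2.3.3, scipy 1.17.1 and numpy 2.4.6. Directly adjoining peaks were not merged. The number of merged regions and of regions of mutant ICI alone was the same with bedtools 2.31.1. Merging and distances were tested on simulated lists with known answers. A gap is the number of bases between a region's edge and the nearest peak's edge. Windows of 100 kb were laid from each chromosome's start and a region was assigned by its midpoint. For densities per Mb, a chromosome was taken to end where its last peak ended. Intervals are exact (Clopper-Pearson) at 95%.

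The regions, distances and lists were chosen with earlier results of these data known. The regions named are the 5 windows with the most members, the 3 widest and 3 farthest regions, the first 3 of each vehicle state and the longest run. Planned results on genes, promoters and motifs needed an mm9 genome or annotation and were not computed. Alternatives were another overlap, merging across gaps, another distance, chromosomes 1 to 19 and X only, and a stricter absence.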

Additional observations from a re-analysis of the deposited data

How the results depend on the processing

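The number of regions of mutant ICI alone stayed within 1.5 times of 8430 under each alternative tried, from 6622 with peaks merged across gaps of up to 1 kb to 8772 with an overlap of at least 100 bp. Of 31 alternative values, 21 differed from the main value by less than its counting interval or, for counts, by less than 1.5 times. The share with a mutant Veh peak moved to 3.58% with merging across 1 kb, and ran from 2.91% to 3.14% otherwise. The share with a WT Veh peak ran from 0.563% to 0.710%. The median gap to another ligand peak moved to 6023 bp with an overlap of at least 100 bp, to 7535 bp and 9898 bp with merging across 200 bp and 1 kb, and to 9822 bp when regions with another ligand peak within 1 kb were left out. These alternatives admit or remove close neighbours by construction. The share within 10 kb of another mutant ICI region moved to 54.4% and 47.6% with merging across 200 bp and 1 kb and to 49.2% without regions near another ligand peak. It was 40.0% at 5 kb and 89.1% at 50 kb. Direct overlap of peaks without merged chains was added after seeing the data and gave 8437. The most regions in a window was 7, and 8 with windows shifted by 50 kb. Alternatives for motifs and promoters were not run. No paired analysis was possible because each group has 1 library. A call below the authors' threshold is not in a list, so the absence of a peak is not absence of binding.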
